A study of Mus musculus with 16 samples.

Results

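Chromatin accessibility was compared between haematopoietic stem cells (HSCs) of old and of young mice after both had been transplanted into young recipients. All 8 libraries made after transplantation were used, of 16 in the whole series: 4 from old donors (old 1 to 4) and 4 from young donors (young 1 to 4). Donors were male B6 mice. Each old replicate came from 1 mouse aged 24 months, and each young replicate from a pool of 3 to 4 mice aged 8 to 12 weeks. For each replicate, 1000 HSCs were injected together with 300000 bone marrow helper cells, depleted of Sca-1 and taken from BJ mice, into 5 lethally irradiated young BJ mice. Marrow of the 5 recipients was pooled 3 months later, and 10000 HSCs were sorted from it for Omni-ATAC-seq, in which a transposase cuts open DNA and so marks it for sequencing. Nothing in the labels states that the sort used a marker of donor origin, so donor HSCs cannot be told apart from HSCs of the recipients or the helper marrow in any value below.

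HSCs keep producing all blood lineages for life, and with age they become more numerous, repopulate less well per cell and give more platelet and myeloid and fewer lymphoid cells. Transplantation forces them to divide and settle in a new niche, here a young one in both age groups. Open chromatin at gene starts and at distal elements is where transcription factors bind, and ATAC-seq reads it as peaks. In a bulk library, more cells with an open region and a region more open in each cell cannot be told apart.

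The deposited data are 1 list of peaks for each library, with no read counts, so the sequencing depth behind each list is unknown. Each peak has an area, the caller's summed significance over the peak, which is not scaled between libraries. The old lists held 23287, 28498, 31003 and 14008 peaks in old 1 to 4, and the young lists 32530, 30784, 31409 and 32007 in young 1 to 4. Old 4 was the shortest list, and 12890 of its 12903 regions (99.9%) were called in all 8 libraries. Peak number was 24199 ± 7516 in old and 31682 ± 754 in young (mean ± SD, n = 4 each), which did not pass an exact two-sided permutation test (p = 0.0571, adjusted p = 0.1 over 7 list measures). With 4 libraries against 4, this test cannot go below 0.0286. Transposition was done on labelled days: old 1 and 2 on day 4, old 3 and young 1 and 2 on day 5, and old 4 and young 3 and 4 on day 6. Day 4 therefore held old libraries alone, and within it day and age cannot be told apart. The start sites of HSC markers were called in 7 of 8 cases in each young library and in 6, 7, 7 and 4 in old 1 to 4. None of 5 T cell and 2 B cell marker start sites was called in any library, and granulocyte and monocyte markers gave 0 to 1 of 6 in each age group. NK cell markers gave 0 to 1 of 3 in old and 0 of 3 in young, and endothelial and stromal markers 1 of 4 in each old library and 1 to 3 of 4 in young. Erythroid and megakaryocyte start sites were called in 3 of 4 cases each in all 8 libraries.

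To take list length into account, values were compared on 2 scales. Peaks of all 16 lists were merged into 33773 regions, each given the name of the protein-coding gene closest to it (up to 100 kb away), on build mm10. On the shared scale, a region's value was the percentile of its area among the 12890 regions called in all 8 libraries. On the equal-length scale, every list was shortened to its 14008 largest peaks, the length of the old 4 list, and a region's value was its percentile within that list, or 0 where it was not in it. Both scales are relative: a higher percentile means a larger peak compared with the other peaks of the same library. Differences are given as old minus young in percentile points, with their standard error (SE) from the limma fit over all regions tested and p values adjusted over all of them (Benjamini-Hochberg, threshold 0.05).

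Sequences are shown for gene starts inside the regions the comparison turned on. They are the start sites of both called regions higher in old that hold one (Cavin2 and Rorb), and 4 from called regions higher in young. These 4 are the first in order of p whose start site belongs to the gene the region is named for. The Rapgef2 region, which holds the start site of another gene, comes before Fkbp4 and was passed over. They are RefSeq promoters of GRCm38.p6, from 250 bases before to 50 bases after the start site, 5′ to 3′ on the gene's strand. Capitals mark matches to any of 6 motifs, searched on both strands: CCAAT, the GC box GGGCGG, the GATA motif AGATAA, the RUNX motif TGTGGT, the ETS motif CCGGAAG and the AP-1 motif TGANTCA. All 300 bases of each lay inside the region measured. Ackr3 is shown as the next start site in order of p among regions with higher values in old, and it did not pass. The Cavin2 promoter is at chr1:51288876-51289175 (plus strand), Rorb at chr19:19111147-19111446 (minus), Ackr3 at chr1:90203730-90204029 (plus), Kpna4 at chr3:69127043-69127342 (minus), Spag9 at chr11:93995841-93996140 (plus), Rps6ka1 at chr4:133872986-133873285 (minus) and Fkbp4 at chr6:128438607-128438906 (minus).
Cavin2: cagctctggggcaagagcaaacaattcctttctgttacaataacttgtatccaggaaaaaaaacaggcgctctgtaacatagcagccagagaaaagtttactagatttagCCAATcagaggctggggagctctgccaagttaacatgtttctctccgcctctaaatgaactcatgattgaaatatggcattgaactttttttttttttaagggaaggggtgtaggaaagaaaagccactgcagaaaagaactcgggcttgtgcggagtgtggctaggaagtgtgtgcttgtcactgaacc
Rorb: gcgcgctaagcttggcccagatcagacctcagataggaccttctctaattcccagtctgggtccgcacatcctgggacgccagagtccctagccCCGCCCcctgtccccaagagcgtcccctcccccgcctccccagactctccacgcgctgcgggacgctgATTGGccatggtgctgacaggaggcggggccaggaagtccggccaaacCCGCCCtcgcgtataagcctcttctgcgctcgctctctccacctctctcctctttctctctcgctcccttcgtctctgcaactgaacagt
Ackr3: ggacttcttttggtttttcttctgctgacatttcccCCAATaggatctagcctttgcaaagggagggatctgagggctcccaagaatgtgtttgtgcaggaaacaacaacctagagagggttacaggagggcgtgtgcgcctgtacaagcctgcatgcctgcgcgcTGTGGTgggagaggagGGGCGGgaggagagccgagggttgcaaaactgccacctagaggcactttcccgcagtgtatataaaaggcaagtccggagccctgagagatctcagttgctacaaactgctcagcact
Kpna4: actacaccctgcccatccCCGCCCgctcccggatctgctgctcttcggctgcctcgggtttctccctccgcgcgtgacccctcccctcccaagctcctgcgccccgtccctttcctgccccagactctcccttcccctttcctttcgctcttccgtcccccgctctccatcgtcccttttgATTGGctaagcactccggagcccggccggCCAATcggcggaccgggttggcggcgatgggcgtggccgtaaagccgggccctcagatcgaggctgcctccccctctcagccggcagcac
Spag9: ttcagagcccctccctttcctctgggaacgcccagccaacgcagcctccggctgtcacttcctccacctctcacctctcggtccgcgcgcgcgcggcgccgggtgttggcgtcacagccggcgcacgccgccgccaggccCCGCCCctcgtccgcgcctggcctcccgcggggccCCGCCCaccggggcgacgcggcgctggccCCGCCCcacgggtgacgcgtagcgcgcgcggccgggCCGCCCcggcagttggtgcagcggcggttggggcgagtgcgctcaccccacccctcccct
Rps6ka1: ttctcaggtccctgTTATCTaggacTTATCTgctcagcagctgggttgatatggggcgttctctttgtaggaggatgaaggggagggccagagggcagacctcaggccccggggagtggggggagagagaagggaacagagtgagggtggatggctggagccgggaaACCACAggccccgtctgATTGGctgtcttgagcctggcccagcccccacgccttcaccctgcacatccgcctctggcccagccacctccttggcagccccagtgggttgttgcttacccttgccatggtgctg
Fkbp4: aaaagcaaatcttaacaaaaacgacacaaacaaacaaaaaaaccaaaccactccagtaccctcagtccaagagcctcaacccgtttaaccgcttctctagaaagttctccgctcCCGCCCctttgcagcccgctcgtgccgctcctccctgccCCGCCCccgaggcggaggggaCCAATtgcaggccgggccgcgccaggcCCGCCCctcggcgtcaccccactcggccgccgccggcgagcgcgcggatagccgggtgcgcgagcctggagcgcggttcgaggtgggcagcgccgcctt

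The promoters in regions called higher in old had 43.3% (Cavin2) and 63.7% (Rorb) G and C bases, and the 4 shown from regions called higher in young 68.7% (Kpna4), 78.7% (Spag9), 62% (Rps6ka1) and 65.3% (Fkbp4). Ackr3, which was not called, had 54%. The median over 32851 RefSeq promoters was 52.7%. CCAAT occurred in Cavin2 and Rorb, in 3 of the 4 shown from regions higher in young (not Spag9) and in Ackr3, against 37.4% of all promoters. The GC box occurred in 5 of the 7 promoters, with 4 matches in Spag9, 3 in Fkbp4, 2 in Rorb and 1 each in Ackr3 and Kpna4, against 35.7% of all promoters. TGTGGT was found once each in Ackr3 and Rps6ka1 (16.8% of all promoters), and AGATAA at 2 places in Rps6ka1 alone (11.2%). No match to CCGGAAG (8.86% of all promoters) or TGANTCA (7.81%) lay in these 7 windows. These matches are a description of the letters and were not tested.

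On the shared scale, 3 regions were higher in old than in young HSCs (0.0233% of the 12890 tested) and none was higher in young (0% called). Without adjustment, 1958 regions had a p below 0.05, 1157 of them higher in old and 801 higher in young. Groups that did not overlap, with every old library above every young library, were found at 876 regions (6.8%), and the reverse at 507 (3.93%). The 3 regions were a distal element near 1700018B08Rik and the start sites of Cavin2 and Rorb. The shared scale holds only regions called in every library of both ages, so it compares how large a peak was and not whether it was called. These regions are nearly the old 4 list (12890 of its 12903), and 8130 regions missing from old 4 alone were not tested. A region small in young was tested where old 4 called it, and a region too weak for a call in old 4 was not. The counts in each direction carry that filter.

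The region with the smallest p lay at chr8:121451277-121452067, outside genes and 78709 bp from the nearest protein-coding gene, 1700018B08Rik. Its percentiles were 24.2, 24.5, 27.5 and 26.0 in old 1 to 4. In young 1 to 4 they were 0.694, 0.128, 0.493 and 0.00388, so it was among the smallest shared peaks of each young library and in the lower middle range of each old library. The difference was 25.22 ± 1.74 (SE), with an adjusted p of 0.0015 (limma). Within day 5, old 3 stood at 27.5 against 0.694 and 0.128 in young 1 and 2, and within day 6 old 4 stood at 26.0 against 0.493 and 0.00388. In the shortened lists the region was present in all 4 old libraries at percentiles of 24.2, 26.9, 30.9 and 26.1 and in none of the young (adjusted p = 0.0077, limma). Percentiles of the whole lists, which move with list length, overlapped. They were 51.6, 62.0, 66.6 and 26.1 in old 1 to 4 and 42.6, 25.8, 39.0 and 7.04 in young 1 to 4.

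Cavin2 encodes a protein that coats caveolae, small invaginations of the cell membrane, and is known to be more expressed in old HSCs. The region over its start site (chr1:51288154-51290276) stood at percentiles of 47.9, 53.7, 52.97 and 56.2 in old 1 to 4 and at 14.7, 14.1, 6.11 and 4.76 in young 1 to 4. The lowest old library was far above the highest young one. The difference on the shared scale was 42.76 ± 3.48 (SE, adjusted p = 0.0032, limma), and the region was also called on the equal-length scale (48.47 ± 4.33, adjusted p = 0.0062). A second Cavin2 region, inside the gene (chr1:51299682-51300865), was at 25.2, 35.0, 31.0 and 52.5 in old and 26.9, 24.0, 24.0 and 13.4 in young. There the groups overlapped and the difference of 13.85 did not pass (adjusted p = 0.319).

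Rorb encodes an orphan nuclear receptor of the ROR family. The region over its start site (chr19:19109988-19112113) stood at percentiles of 45.7, 54.6, 71.2 and 60.0 in old 1 to 4 and at 13.4, 0.291, 2.32 and 1.37 in young 1 to 4. Young 1 was set apart from the other young libraries and was still below every old one. The difference was 53.52 ± 5.49 (SE, adjusted p = 0.016, limma). In the shortened lists the region was absent from all 4 young libraries and present in all 4 old ones at percentiles of 34.1, 57.8, 73.5 and 60.0 (adjusted p = 0.028, limma). By percentiles of the whole lists the ages did not overlap but came close, with old 4 at 60.05 and young 1 at 59.05.

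The next regions in order of p did not pass on the shared scale. Amotl2 encodes an angiomotin-family scaffold that binds YAP, and its region inside the gene (chr9:102725821-102726792) was at 28.7, 26.1, 27.3 and 31.0 in old against 11.4, 5.09, 4.76 and 12.0 in young (adjusted p = 0.079). It did pass on the equal-length scale, with a difference of 26.30 ± 3.12 (SE, adjusted p = 0.016). Ackr3, a scavenging receptor for the niche chemokine CXCL12, had percentiles of 15.1, 18.4, 16.02 and 22.6 in old at its start site (chr1:90203644-90204587) and 2.71, 1.87, 3.84 and 1.83 in young (adjusted p = 0.087). Its age groups did not overlap, but as a percentile of the whole list the difference was -0.09.

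In the other direction none passed on the shared scale, and the 5 regions with the smallest p lay at or near Rps9, Cdc42se2, Prkar2b, Zcchc2 and Abi3 (adjusted p from 0.110 to 0.120, limma). At Rps9, a protein of the small ribosomal subunit, percentiles were 3.14, 2.75, 5.403 and 1.79 in old and 13.6, 14.2, 16.3 and 14.2 in young. The region 13980 bp from Cdc42se2, a small effector of the GTPase CDC42, was at 5.41, 8.72, 10.9 and 1.59 in old and 20.1, 24.2, 25.9 and 24.5 in young. The region 49117 bp from Prkar2b, a regulatory subunit of protein kinase A, was at 0.989, 7.40, 15.99 and 15.03 in old and 33.8, 34.4, 29.4 and 32.3 in young. In these 3 and in the other two, every young library was above every old one. Inside Zcchc2 the values were 19.8, 17.1, 19.1 and 7.45 in old and 36.6, 38.9, 33.2 and 36.2 in young. At the end of Abi3, of a family of adaptors in actin remodelling, they were 32.9, 51.8, 46.8 and 43.5 in old and 68.2, 70.7, 69.1 and 70.004 in young.

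Leaving out old 4 raises the number of shared regions to 21020 and ended all 3 calls of the shared scale: the adjusted p became 0.085 for the region near 1700018B08Rik, 0.089 for Cavin2 and 0.089 for Rorb, with differences of 41.05, 33.57 and 48.75. With transposition day in the model, 5 regions were higher in old and 2 higher in young, and the 3 named here were among the 5. Leaving out old 1 gave 6 regions higher in old, and leaving out old 3 gave 9 higher in old and 18 higher in young, with the 3 among them each time. The call of Rorb was also lost without old 2, young 2, young 3 or young 4 (adjusted p from 0.0726 to 0.124).

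**Figure D1:**
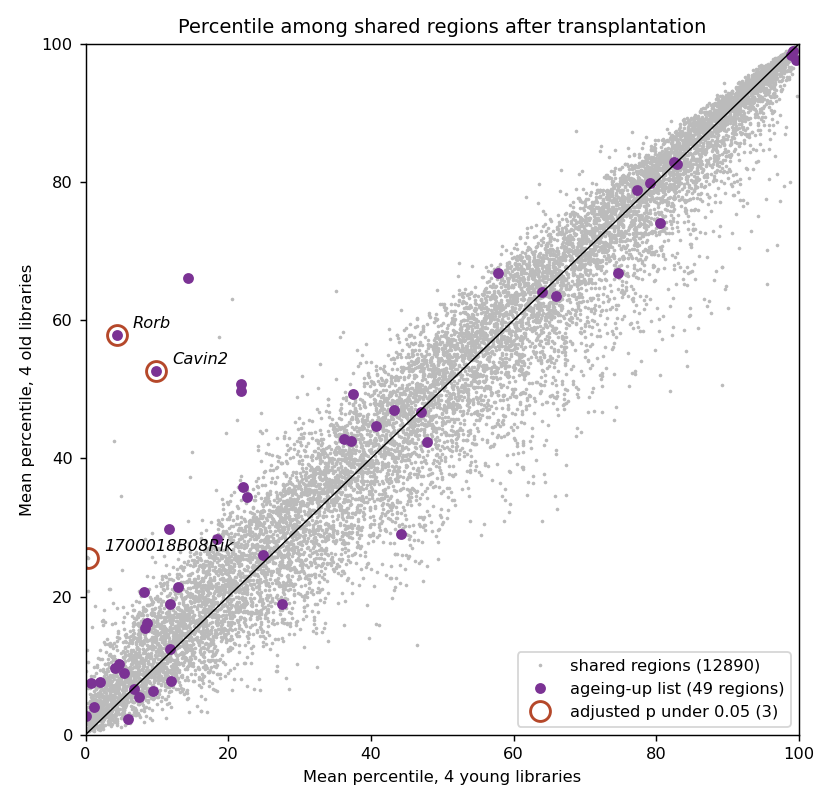
Mean percentile of peak area among the 12890 regions shared by the 8 libraries, young on the x axis and old on the y axis, with the line of equality. Circles mark the 3 regions past the adjusted threshold, and filled points the 49 regions of genes reported as higher in old HSCs. Rorb, Cavin2 and the region near 1700018B08Rik lie far above the line.

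At equal list length, 5 regions were higher in old (0.0361% of 13847 tested) and 16 were higher in young (0.116%). Unadjusted, 2162 regions had a p under 0.05. Regions with every old library above every young one made up 6.1% of those tested, and the reverse 4.74%. The 5 higher in old were the 3 above, Amotl2 and Gabbr2. A region was tested where at least 4 of the 8 shortened lists held it. Rorb and the region near 1700018B08Rik entered through the 4 old lists alone, so their p values at equal length carry that filter. Gabbr2 encodes a subunit of the GABA-B receptor, and its region inside the gene (chr4:46664016-46666055) was at 76.7, 80.2, 80.8 and 82.3 in old and at 49.1, 51.6, 35.6 and 26.0 in young (difference 39.44 ± 5.57, adjusted p = 0.043, limma). Its young values on the shared scale were 73.1, 74.8, 64.1 and 53.8, and the difference was 12.27 (adjusted p = 0.298, limma). The region was 2, 2, 2 and 3 peaks in old 1 to 4 and 2 in each young library, and lists were shortened peak by peak. Its whole-list percentiles overlapped, at 85.2, 89.7, 90.7 and 82.3 in old and 88.6, 88.8, 84.3 and 79.9 in young.

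Of the 16 regions higher in young, 8 hold a start site, and 8 were also tested on the shared scale. There all 8 had lower values in old, by -38.59 to -5.57, and none passed (adjusted p from 0.110 to 0.296, limma). The smallest p belonged to Ripply3, which encodes a corepressor of T-box factors (chr16:94327716-94329829, at a gene end). It stood at 51.1, 42.8, 50.2 and 40.9 in young 1 to 4 and was absent from all 4 shortened old lists (difference -46.25 ± 3.37, adjusted p = 0.0041). It entered this fit through the 4 young lists alone, so its p carries that filter. In the full lists it was called in 3 of 4 old libraries, all but old 4. It was 2 peaks in each of these and 1 peak in each young library, and lists were shortened peak by peak. Its whole-list percentiles were 48.7, 65.4 and 66.2 in old 1 to 3 and 77.5, 72.3, 76.5 and 72.4 in young 1 to 4.

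Next in order of p came the start sites of Kpna4, Spag9 and Rps6ka1. Kpna4, an importin that carries proteins into the nucleus, was at 72.5, 71.8, 72.5 and 68.0 in old and 89.1, 88.3, 88.0 and 86.6 in young (adjusted p = 0.0062). Spag9, a scaffold of MAP kinase signalling, was at 81.7, 77.7, 78.4 and 80.6 in old and 90.8, 93.5, 91.5 and 92.5 in young (adjusted p = 0.0062). In both, the peak was large in every library. In the shortened lists, the spread within each age was small beside the gap between them. This tightness was specific to these lists. The SD of the old libraries was 2.14 for Kpna4 and 1.895 for Spag9 there, and 6.84 and 3.58 on the shared scale. The groups did not overlap on the shared scale either, with differences of -11.96 for Kpna4 and -5.57 for Spag9 that did not pass (adjusted p = 0.254 and 0.277). Rps6ka1, the kinase RSK1 downstream of ERK, had an internal start site at 37.9, 48.1, 48.2 and 49.99 in old and 81.0, 84.6, 83.4 and 78.0 in young (difference -35.72 ± 3.31, adjusted p = 0.0062). Its old values on the shared scale were 56.6, 69.3, 71.4 and 49.95, and the difference was -18.35 (adjusted p = 0.256). With the largest peak of a region in place of the sum it was 3.65, with the summit 3.84 and with peaks of at least 2 times the smallest area 6.23, so its direction at equal length depends on how the peaks of the region are measured.

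Fkbp4, an immunophilin that works with HSP90, was at 41.9, 34.1, 39.4 and 41.7 in young, and of the shortened old lists that of old 1 alone held it, at 11.1 (difference -36.50 ± 3.76, adjusted p = 0.008). In the full lists it was called in 3 of 4 old libraries, as 2 peaks in each. The region at the end of Hsp90ab1, which encodes HSP90 itself, was at 83.7, 92.1, 94.7 and 90.1 in young and 60.2, 47.3, 49.5 and 30.5 in old (difference -43.29 ± 5.70, adjusted p = 0.03). That region spans 5979 bp and also holds the start site of Slc35b2, so it cannot be assigned to 1 of them.

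Rapgef2, which activates the small GTPase Rap1, was at 77.1, 76.2, 73.5 and 77.3 in young and 43.2, 48.3, 43.0 and 35.0 in old (adjusted p = 0.0077). Its region also holds the start site of 6430573P05Rik. Rhbdf2, the protein iRhom2 that brings the TNF-releasing protease ADAM17 to the cell surface, was at 43.3, 32.3, 47.8 and 37.8 in young and present in old 2 alone among the shortened old lists, at 7.5 (adjusted p = 0.0097). It too was called in 3 of 4 old libraries in the full lists. Sema4d, a semaphorin of leukocytes, was at 49.0, 55.5, 43.0 and 48.6 in young and 0, 10.3, 19.3 and 6.66 in old (adjusted p = 0.016). At both Sema4d regions tested, every young library was above every old one, beside 4.74% of all regions at equal length and 3.93% on the shared scale. The called Sema4d region was 2 peaks in each of old 1 to 3 and 1 peak in old 4 and in each young library. Both differences were smaller on the shared scale, -17.79 at Rapgef2 and -18.67 at this Sema4d region.

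The region 10444 bp from Coq2, an enzyme of coenzyme Q synthesis, was at 27.94 ± 2.04 in young and 1.18 ± 1.42 in old (mean ± SD, n = 4 each, adjusted p = 0.0077, limma). Zhx2, a zinc finger and homeobox repressor, was at 73.51 ± 7.87 in young and 11.58 ± 14.05 in old (adjusted p = 0.015, limma). In the full lists it was called in 3 of 4 old libraries, as 2, 2 and 3 peaks in old 1 to 3, and as 2 peaks in each young library. Its whole-list percentiles overlapped, at 51.7, 74.3 and 87.0 in old 1 to 3 and 90.4, 81.7, 87.7 and 90.1 in young 1 to 4. Rnf220 encodes a ubiquitin ligase, and the region inside it with the smallest p was at 31.0, 44.2, 43.9 and 44.9 in young and 8.71, 6.98, 0 and 0 in old (adjusted p = 0.015). Of 7 Rnf220 regions tested at equal length, 6 had lower values in old, 5 of those without overlap between the groups (4.74% of all regions tested), and 2 passed. The Coq2 region and the 2 Rnf220 regions that passed were each called in 3 of 4 old libraries in the full lists. On the shared scale 2 Rnf220 regions were tested, with differences of -1.04 and 3.50, and both overlapped. The remaining 3 of the 16 were the Prkar2b region (-30.99 ± 4.10, adjusted p = 0.03) and, outside the rule for named regions and listed after their values were seen, the start of Rasa3 (-9.61 ± 1.28, adjusted p = 0.03) and a region near Icosl (-21.22 ± 3.01, adjusted p = 0.043). Rasa3 encodes a GTPase-activating protein of Ras and Rap, and Icosl the ligand of the T cell receptor ICOS.

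**Figure D2:**
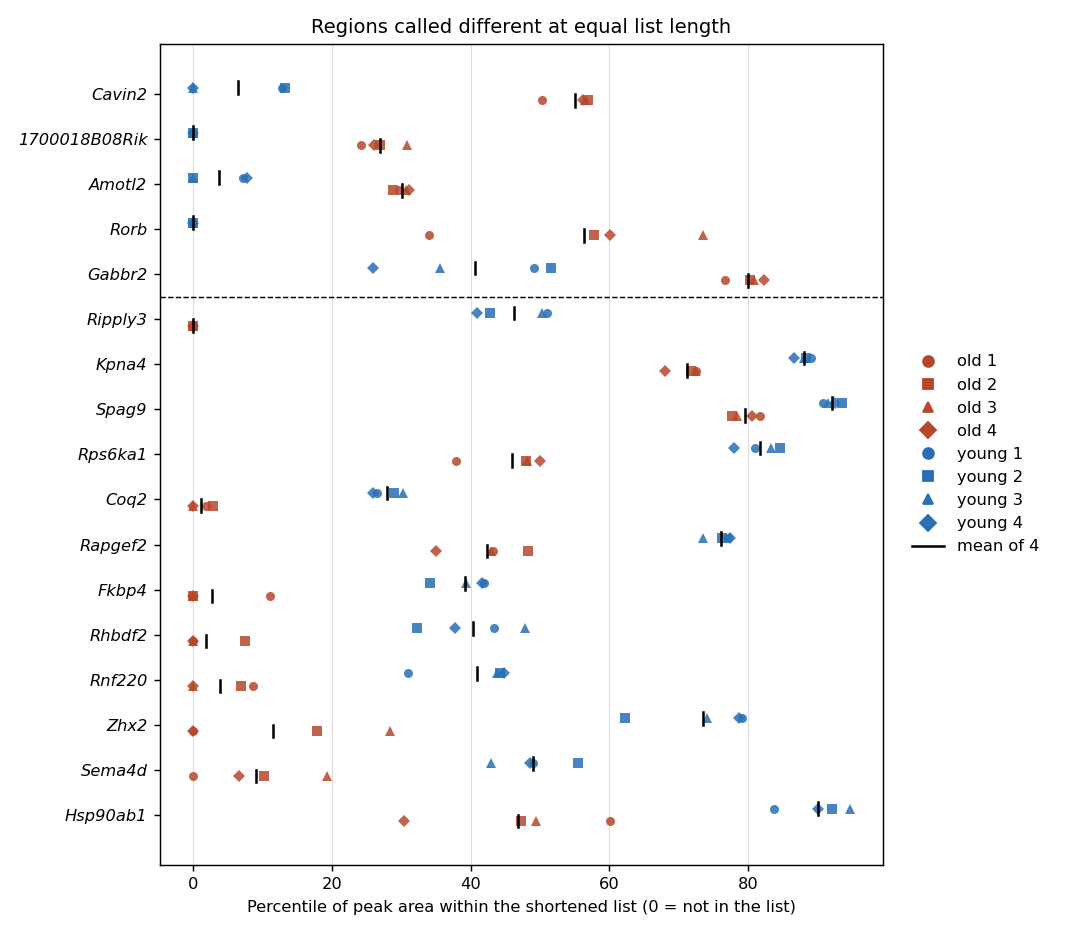
Percentile of peak area within the shortened list, 0 meaning not in the list, for each of the 8 libraries at the 17 named regions past the adjusted threshold at equal list length (1 per gene). Points are libraries, red for old and blue for young, and black ticks are means of 4. The 5 regions above the dashed line are higher in old and the 12 below it higher in young.

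Regions higher in young were often ones that the caller had cut into several peaks in some library: 12 of 16 (75%), against 19.5% of all regions tested. Of the 5 higher in old, 2 (40%) were cut in this way. With the summit's -log10 p in place of the area, none of the 16 was called, Rps6ka1 and Rapgef2 turned to 3.84 and 3.96 in favour of old, and the 1 region then called higher in old was not among the 5. With regions of a single peak in every list alone, 3 and 3 were called (an alternative chosen after seeing the data). Leaving out young 3 left 0 calls in either direction, and leaving out old 3 gave 31 higher in old and 103 higher in young. Leaving out each other library in turn, the calls higher in old and in young numbered 3 and 31 (old 1), 1 and 16 (old 2), 3 and 18 (old 4), 3 and 11 (young 1), 1 and 7 (young 2) and 1 and 3 (young 4). Leaving out old 4 and shortening the lists to the next shortest, 23287 peaks, gave 1 and 10 calls, of which 1 was among the 5 and 0 were among the 16. With transposition day in the model 14 and 69 regions were called, among them all 5 and 13 of the 16.

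No region was present in all 4 shortened lists of an age and absent from all 4 full lists of the other. For regions of old alone this was nearly fixed in advance, because such a region must be in the old 4 list. Counting absence in the shortened lists instead, 43 regions were in all 4 old and no young lists, and 46 in all 4 young and no old lists. Apart from Rorb and the region near 1700018B08Rik, the highest ranked of the 43 lay near Gm8439 (percentiles of 11.6, 32.3, 39.5 and 58.6 in old 1 to 4), near A530032D15Rik (3.43, 23.8, 27.6 and 46.5), at the start of Tcaf2 (37.5, 25.4, 17.7 and 20.03) and at chr10:119065221-119066285, over 100 kb from any gene. All of these were called in each young library's full list, the chr10 region as 2 peaks in each. On the shared scale the age groups overlapped at the chr10 region (adjusted p = 0.332, limma). It was at 15.7, 23.5, 37.2 and 31.7 in old and 17.2, 18.6, 17.3 and 17.6 in young. After Ripply3, the highest ranked of the 46 lay near Ppp2r1b (56.4, 9.06, 55.4 and 53.6 in young 1 to 4), at Gm9997 and the start of Nin (45.3, 6.73, 40.4 and 54.7), Lrrc75a (11.6, 18.3, 50.6 and 35.3), Plac8 (35.2, 23.0, 34.5 and 18.5) and Tead3 (28.0, 20.9, 40.5 and 8.95). In the full lists, the Ppp2r1b, Gm9997, Plac8 and Tead3 regions were each called in 3 of 4 old libraries, and the Lrrc75a region in 1. Without shortening, 513 regions were called in all 4 young and no old libraries and 0 in the reverse. The reverse count was nearly fixed in advance, because 12890 of the 12903 regions of old 4 were called in all 8 libraries. Age and list length cannot be told apart in this contrast. Old 4 was the shortest full list, and old 3 held 31003 peaks and young 2 held 30784.

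Among 23 gene lists (503 of 506 genes found in the RefSeq table), the one with the highest median was the list of genes reported as higher in old HSCs. This list was compiled with results of these data known, so its direction is a description. Of its 42 genes, 30 had a shared region, 49 regions in all, and 12 had none. Their median difference was 3.48, against 0.53 over all shared regions, and 20 genes had values higher in old and 10 higher in young. The list's median percentile was 38.5, 38.8, 33.0 and 36.9 in old 1 to 4 and 19.9, 22.5, 20.8 and 20.8 in young 1 to 4. Of the 49 regions, 2 passed (Cavin2 and Rorb). At 13 (26.5%) every old library was above every young one, beside 6.8% of all shared regions, and at 0 the reverse, beside 3.93%. At equal list length the list's median over 46 regions was 1.31, against -0.07 over all regions tested. There 11 of 46 (23.9%) had every old library above every young one, beside 6.1% of all regions, and 0 the reverse, beside 4.74%. Over the 21 regions of the list at gene ends alone, the median was 0.54, close to the 0.43 of all gene-end regions, while 6 of them (28.6%) had every old library above every young one.

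The start of Wwtr1 had the second largest difference on this list, between Rorb and Cavin2, and did not pass. After Cavin2 came Plscr2, Aldh1a1 and Clu, which did not pass either. Wwtr1 encodes TAZ, a coactivator of the Hippo pathway, and its start site was at 66.3, 77.1, 72.9 and 48.3 in old against 34.7, 2.96, 14.7 and 5.03 in young (adjusted p = 0.11). The end of Plscr2, of the phospholipid scramblase family, was at 38.6, 54.5, 52.3 and 57.7 in old and 19.5, 26.0, 20.8 and 20.8 in young (adjusted p = 0.11). Aldh1a1, an enzyme of retinoic acid synthesis, was at 46.1, 55.0, 53.5 and 44.3 in old and 19.0, 17.0, 23.7 and 27.7 in young (adjusted p = 0.092). Clu, the secreted chaperone clusterin, was at 31.7, 24.1, 26.4 and 36.9 in old and 15.4, 8.92, 14.2 and 8.05 in young (adjusted p = 0.158). In each of these 4, all old libraries were above all young ones.

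Not all genes known for old HSCs had such values. At Selp, the platelet adhesion receptor P-selectin, old and young means were 79.8 and 79.1. The Slamf1 region, in the gene of the HSC marker CD150, had means of 12.5 in old and 11.8 in young. Vwf, the platelet adhesion protein von Willebrand factor, had a region lower in old by 6.38 and another higher by 1.58 (adjusted p = 0.335 and 0.688). The lowest value on the list was at the start of Exoc6b, at 48.7, 33.8, 29.2 and 4.32 in old and 43.0, 47.2, 46.2 and 40.5 in young (adjusted p = 0.371), where old 4 is far below the rest.

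**Figure D3:**
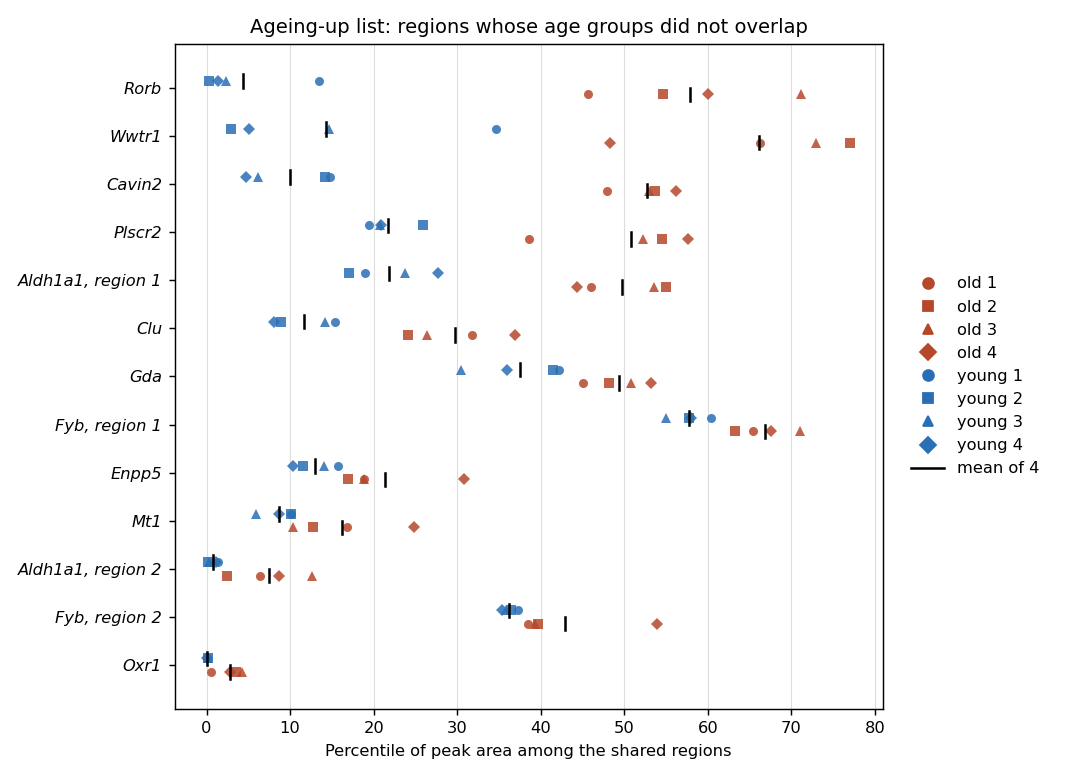
Percentile among shared regions, x axis, in each of 8 libraries (red old, blue young) at the 13 regions of genes reported as higher in old HSCs where the age groups did not overlap. Black ticks are means of 4. Rorb, Wwtr1 and Cavin2 have the widest gaps, and only Rorb and Cavin2 passed the adjusted threshold.

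No region of the other lists passed on the shared scale. The lists with the lowest medians were TGF-beta and BMP signalling (-3.65 over 43 regions, 15 of 18 genes with lower values in old), endothelial and stromal genes (-2.53 over 14 regions, 5 of 8 genes) and HSC identity (-1.997 over 82 regions, 23 of 27 genes). TGF-beta signals hold HSCs in quiescence. The list median of the TGF-beta and BMP regions was 51.8, 54.9, 54.6 and 38.7 in old 1 to 4 and 62.1, 59.6, 57.7 and 61.1 in young 1 to 4. All old values were below all young ones, and old 4 was the lowest. At equal length the ages overlapped, at 50.2, 46.5, 54.97 and 36.3 in old and 53.7, 47.8, 56.004 and 57.7 in young. Over the 17 shared regions of this list at gene ends they overlapped too. There the medians were 69.4, 68.4, 67.2 and 53.02 in old and 70.02, 67.6, 69.02 and 71.6 in young. The list's median difference stayed below that of all regions, at -3.94 and -3.65. Single regions of that list did not overlap at 1 in favour of old (2.33%, beside 6.8% of all shared regions) and at 6 in favour of young (14%, beside 3.93%). Its largest differences were at the start sites of Bmpr2 and Smad1, and at both old 4 was far below every other library. Bmpr2, a BMP receptor, was at 51.8, 43.01, 67.2 and 4.08 in old 1 to 4 and 66.5, 61.8, 57.6 and 63.8 in young (adjusted p = 0.383). Smad1, its signal transducer, was at 54.2, 48.8, 56.99 and 3.11 in old and 64.9, 60.9, 57.6 and 59.1 in young (adjusted p = 0.382). A region near Id1, a target of BMP signals, was at 78.44 in old and 70.23 in young (adjusted p = 0.254).

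The HSC identity medians were 62.5, 66.0, 69.2 and 51.9 in old and 68.4, 65.5, 69.1 and 67.6 in young, so the groups overlapped and old 4 stood lowest. Its largest differences were at Zfpm1, the GATA cofactor FOG1 (61.04 in old and 87.63 in young, adjusted p = 0.312), and, in the other direction, at Msi2, an RNA-binding regulator of HSCs (48.55 and 34.00, adjusted p = 0.332). The 16 regions of genes reported as lower in old HSCs had a median of 0.98, and the receptor gene Flt3 was at 29.69 in old and 41.98 in young (adjusted p = 0.288). Of lineage lists, megakaryocyte and platelet genes had a median of -1.55 (31 regions), erythroid genes -1.30 (26), myeloid factors -0.61 (27), lymphoid priming 1.15 (22), and granulocyte and monocyte genes 0.02 (8). Mature T, B and NK genes had a median of 2.04 over 11 regions.

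Among the remaining signalling and stress lists, medians were -1.78 for Hippo and actin (26 regions), -1.68 for NF-kB and inflammation (35), -0.86 for p53 and DNA damage (20), -0.82 for hypoxia and metabolism (45) and -0.63 for AP-1 and immediate early genes (48). Homing and niche adhesion stood at -0.39 (38), cytokine receptors at -0.34 (30), interferon response at -0.09 (28), chromatin regulators at 0.55 (32), autophagy and lysosome at 0.78 (20), the cell cycle at 0.95 (34) and Wnt at 1.44 (24). Single regions of these lists with wide gaps between the means did not pass either. Tnf, the inflammatory cytokine, was at 12.93 ± 11.55 in old and 46.47 ± 13.53 in young at its start site (mean ± SD, n = 4 each, adjusted p = 0.199, limma). A region at the start site of Tet2, the DNA demethylase often mutated in ageing blood, was at 13.96 ± 4.09 in old and 27.52 ± 1.93 in young (adjusted p = 0.164). Yap1, the partner of TAZ, had a region at 18.34 ± 5.41 in old and 4.41 ± 1.42 in young (adjusted p = 0.164).

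**Figure D4:**
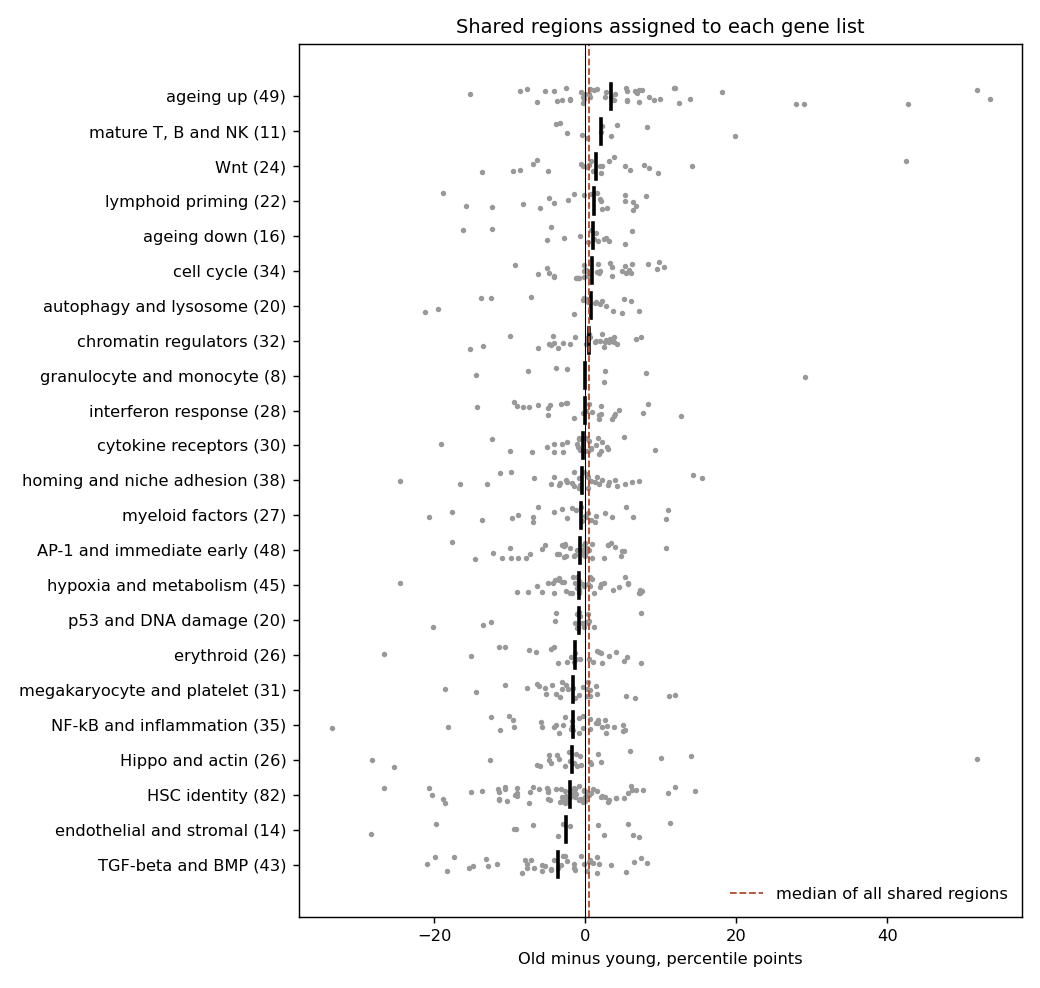
Old minus young difference in percentile points for every shared region of each of 23 gene lists, with the number of regions in brackets. Grey points are regions, black ticks list medians, and the dashed line the median of all 12890 shared regions, 0.53. The list of genes reported as higher in old has the highest median, 3.48, and TGF-beta and BMP the lowest, -3.65.

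The same regions were looked up in the lists made before transplantation, where an old donor mouse or young donor pool was measured before its HSCs were injected. These lists held 5687 to 30520 peaks in old and 9614 to 28298 in young libraries, and percentiles of whole lists move with length, so the values are given side by side with no test. The region near 1700018B08Rik was called in 4 old and 2 young libraries before transplantation, at whole-list percentiles of 70.8, 73.7, 67.5 and 11.7 in old and 38.9, 0, 23.8 and 0 in young (0 where not called). Cavin2 stood at 91.5, 94.2, 85.1 and 57.7 in old and 54.5, 24.8, 48.7 and 0 in young. Rorb stood at 92.2, 95.3, 85.6 and 21.3 in old and 75, 69.5, 50.6 and 2.57 in young. Of the 16 regions higher in young at equal length, 10 had been called in more young than old libraries before transplantation and 0 in more old ones. Over all 13847 regions tested these shares were 31.6% and 2.02%.

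Over the shared regions, the 4 young libraries were more alike than the 4 old ones. Each young library came from a pool of 3 to 4 mice and each old one from 1 mouse. List lengths ran from 14008 to 31003 peaks in old and from 30784 to 32530 in young. Age cannot be told apart from pooling or list length here. Spearman correlations of their percentiles, taken across regions that are not independent, were 0.980 to 0.985 among the 6 pairs of young libraries and 0.879 to 0.967 (median 0.908) among the 6 pairs of old ones. Between the ages, the 16 pairs gave 0.869 to 0.976, with a median of 0.958 that lies above the median among old libraries. Correlations between ages averaged 0.0126 less than those within ages. An exact one-sided permutation test over 70 regroupings of the libraries gave p = 0.0286, the smallest it can give here. Leaving out any 1 young library, the exact p lay between 0.286 and 0.429, and with the summit in place of the area it was 0.286.

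**Figure D5:**
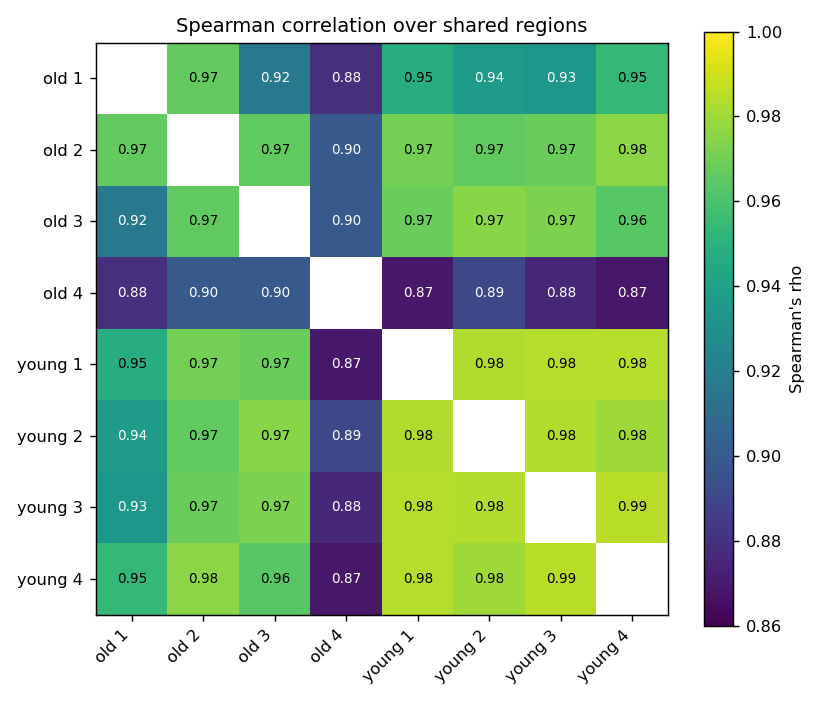
Spearman correlation of percentiles over 12890 shared regions for each pair of the 8 libraries. The colour runs from 0.86 to 1. Old 4 is the least like the others, with 0.87 to 0.90, and the young libraries lie between 0.98 and 0.99.

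The share of regions at gene ends moved with list length. In the full lists 46.4% ± 8.1 of old and 39.1% ± 0.31 of young regions were within 1 kb of a gene end (SD, n = 4 each, exact p = 0.114). In the shortened lists the shares were 58.6% ± 2.1 and 59.0% ± 0.62 (exact p = 0.771). Median peak widths in the shortened lists were 917, 1069, 1105 and 598 bp in old 1 to 4 and 1168, 1129, 1171 and 1181 bp in young 1 to 4 (exact p = 0.0286, adjusted p = 0.0857 over 6 measures, which did not pass). The median rank of gene-end regions was 60.7 in both ages, and of the 4 location classes none passed an exact test (adjusted p from 0.686 to 1). Of the chromosomes, 7 and 14 had exact p = 0.0286, with adjusted p = 0.286.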

How the data were processed

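ATAC-seq peak lists of 16 mouse HSC libraries were used, 8 of them from after transplantation. Per the submitters' processing notes, the tools were Genrich for peak calling on mm10, Trim Galore with cutadapt for trimming, and FastQC, MultiQC, ChIPseeker and featureCounts. An aligner was not given in the sources used here, nor were settings. Deposited lists were called for each library separately; their area is a score of at least 200, and the deposited summit values are -log10 p and -log10 q. None is normalised between libraries, and their unknown depth can change list length and peak area.

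Of 223716 peaks after transplantation, 190 (0.0849%) on unplaced scaffolds were left out. Peaks were merged where they overlapped by at least 1 bp, keeping regions that at least 2 of the 16 lists called. Areas of peaks in a region were summed. Percentiles were fitted in R 4.3.3 by limma 3.58.1 (trend, 4 against 4, no covariate), on regions shared by all 8 lists and on regions in at least 4 of 8 shortened lists, and the fit was tested on simulated data. Genes came from RefSeq GRCm38.p6. Tests over libraries were exact permutations in Python 3.11.15 with scipy 1.17.1. Named regions are, for each comparison, up to 12 regions per direction past the threshold with the smallest p, a single region per gene. Where fewer than 5 passed, the 5 with the smallest p are described. All-or-none regions are the 6 with the highest mean percentile. Members, gene lists and tests were chosen with earlier results of these data known. Nothing says the replicates' recipients or libraries were independent beyond their labels, and p values measure the spread between these libraries. Same-numbered old and young libraries were not treated as pairs: the correlation of their deviations was 0.208, -0.340, 0.197 and -0.213 for numbers 1 to 4.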

Additional observations from a re-analysis of the deposited data

Results flagged for a closer look

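In 80 groups of 4 libraries, the gap of the highest or lowest library to its neighbour was compared with the range of the group, a rule that chance meets in about 1 of 20 groups; 7 groups met it. Of these, 6 were equal-length percentiles. Cavin2 was at 50.3 in old 1, against 56.3 to 56.9 in the other old libraries. Kpna4 was at 68.0 in old 4, against 71.8 to 72.5. Rps6ka1 was at 37.9 in old 1, against 48.1 to 49.99. After shortening, the Fkbp4 region was held by old 1 alone of the old libraries, at 11.1, and the Rhbdf2 region by old 2 alone, at 7.5; in the full lists 3 of 4 old libraries held each. Rnf220 was at 31.0 in young 1, against 43.9 to 44.9 in the other young libraries. On the shared scale, Rorb was at 13.4 in young 1, against 0.291 to 2.32. At none of these regions did the library set apart reach the values of the other age.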

How the results depend on the processing

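Counts of called regions are given as higher in old, then higher in young. On the shared scale (3 and 0), they were 12 and 1 by the summit's -log10 p, 2 and 2 with the largest peak of a region, 8 and 0 with normal scores, 5 and 2 with transposition day in the model, 6 and 3 on shared days alone, 1 and 0 with peaks of at least 2 times the smallest area, and 0 and 0 by percentiles of the whole list. At equal length (5 and 16), they were 1 and 0 by the summit, 4 and 9 with the largest peak, 9 and 16 with normal scores, 10 and 31 with percentiles within location classes, 3 and 7 with list length as a covariate, 14 and 69 with day, 17 and 129 on shared days, 0 and 5 with the larger peaks, 2 and 12 for regions in at least 6 shortened lists, 1 and 10 without old 4 at the next length of 23287 peaks (1 of them among the 5 and 0 among the 16), and 3 and 3 for single-peak regions, an alternative added after seeing the data. Array weights gave 2135 and 1793 on the shared and 1828 and 1544 on the equal-length scale, where old 2 had a weight of 9.65 and 8.08 and the estimate had not converged. With the number as a replicate block, 0 regions were called in either direction on both scales (1707 and 1884 at an unadjusted p under 0.05, limma); the labels do not tie these numbers together across ages. Leaving out 1 library in turn gave 0 to 9 and 0 to 18 calls on the shared and 0 to 31 and 0 to 103 on the equal-length scale.

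All-or-none regions (0 and 0) became 43 and 46 with absence from the shortened lists, 0 and 513 on full lists, and 0 to 1 in each direction with 1 library left out. The old counts of 0 in the main setting and on full lists were nearly fixed in advance by the short old 4 list. The similarity difference was -0.00472 by the summit (exact p = 0.286), and from -0.031 to -0.00113 with 1 library left out. Reversals, none of them of a called value in both settings, were in shares of regions in shortened lists, with differences of -0.396 at gene ends, 0.441 outside genes and 0.117 beyond 100 kb. The gene-end median rank differed by 0.6003 by the summit and from -0.702 to 0.446 with 1 library left out, the within-gene one by -1.03 to 1.008 with 1 library left out (positive without old 1), and that of chromosome 7 by -0.212 by the summit. Ackr3 stood at -0.0917 by the whole list, Rps6ka1 at 3.84 by the summit, 3.65 by the largest peak and 6.23 with the larger peaks, and Rapgef2 at 3.96 by the summit. The causes were not tested. Depth is unknown, so a region not called is not shown to be closed.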
